A study of Mus musculus with 6 samples.

Results

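The genes described here are the ferritin and iron handling genes of cultured mouse cardiac fibroblasts: 10 genes, all 10 of them present among the 17525 genes measured. They are the ferritin subunit genes Ftl1 and Fth1, the iron importers Tfrc, Slc11a2 and Slc39a14, the exporter Slc40a1, the iron regulatory proteins Aco1 and Ireb2, the ferritin degradation receptor Ncoa4 and the haem oxygenase Hmox1. They were listed by name after Ftl1 and Fth1 had been seen to differ in opposite directions between the study's groups. The fold changes of these 10 genes are therefore given as a description, without p-values. Poly(A)-selected RNA was sequenced from 3 samples in which a lentivirus had delivered a short hairpin RNA against Sipa1 (genotype label Sipa1 knockdown) and from 3 samples given a scramble hairpin (genotype label WT). All 6 were unpassaged heart fibroblasts of C57BL/6 mice aged 6 weeks, grown in serum-containing medium, and all received lipopolysaccharide (LPS, a bacterial wall component) at 1 µg/ml for 24 h, starting 72 h after the virus. The product of Sipa1 turns off Rap, a small GTPase, and the study asks what it does in inflammatory fibroblasts. The labels place all 6 samples in 1 batch. Every sample therefore carries both virus and LPS, and cells without them were not analysed here. The labels name an EGFP reporter for the hairpin vector. The sources used here do not say whether cells were selected for it, or whether samples came from separate cultures or mice, so the variation that the p-values rest on may be partly or wholly technical.

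Cells take up iron bound to transferrin through the transferrin receptor, reduce it, and move it out of endosomes into the cytosol. Iron that is not used at once is stored in ferritin, a hollow shell built of heavy and light chains: the heavy chain oxidises the metal so that it can be stored, and the light chain helps the mineral core to form. Iron regulatory proteins bind a hairpin in messenger RNA, the iron-responsive element. Bound in the 5′ untranslated region (UTR) it blocks translation, as in ferritin mRNA, and bound in the 3′ UTR it protects the mRNA from decay, as in transferrin receptor mRNA. Much of ferritin control is thus known to act on translation, which messenger RNA levels do not show. During infection, cells are known to withhold iron from microbes, and cells of the macrophage lineage are the best studied in this respect.

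The iron-responsive elements of the genes whose values follow are shown here because they sort these transcripts by the end at which regulatory proteins bind. They were found in GENCODE mouse transcripts (GRCm38) on the sense strand as a C, 5 bases (N), the loop CAGTGN and 5 further bases, where the 5 bases before the loop pair with the 5 after it, G-U pairs allowed. Capitals mark the loop of the hairpin, and each window is 29 bases long.
Ftl1, 5′ UTR, chr7:45459779-45459807, minus strand: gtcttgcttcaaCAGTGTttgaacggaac
Fth1, 5′ UTR, chr19:9982732-9982760, plus strand: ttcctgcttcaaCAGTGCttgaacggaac
Slc40a1, 5′ UTR, chr1:45925465-45925493, minus strand: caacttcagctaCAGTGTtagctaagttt
Tfrc, 3′ UTR, chr16:32631219-32631247, plus strand: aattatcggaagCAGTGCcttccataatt
Tfrc, 3′ UTR, chr16:32631598-32631626, plus strand: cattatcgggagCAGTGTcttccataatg
Tfrc, 3′ UTR, chr16:32631663-32631691, plus strand: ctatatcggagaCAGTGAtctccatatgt
Tfrc, 3′ UTR, chr16:32631710-32631738, plus strand: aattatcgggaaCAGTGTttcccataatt

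Ftl1 and Fth1 carry nearly the same element, with 26 of 29 bases identical, whereas Slc40a1 shares 13 of 29 bases with each of them. The 4 matches in Tfrc all lie in its 3′ UTR. Among 21877 protein-coding genes, 0.142% had the pattern in a 5′ UTR and 0.590% in a 3′ UTR of any coding transcript. Slc11a2, Slc39a14, Aco1, Ireb2, Ncoa4 and Hmox1 had no match to these letters in the transcripts searched. Neither had Epas1 and Cdc42bpa, listed further below with known carriers of such elements. The strict pattern can thus miss elements, and a gene without a match may still carry one.

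The libraries held 37309897 to 41273283 reads in genes in the knockdown samples and 30930998 to 41839742 in the scramble samples. Sipa1 itself stood at 15.2 to 20.0 CPM (a gene's reads scaled to the library's TMM-adjusted total) in knockdown libraries, against 41.0 to 43.7 CPM in scramble libraries. Its log2 fold change was -1.25 (SE 0.075, edgeR quasi-likelihood adjusted p = 2.64e-11), and permuting the samples exactly, two-sided, returned p = 0.1, the minimum for a design of 3 and 3. Summed over the list, 8 of 8 fibroblast markers were measured, at 17736 to 19302 CPM in knockdown and 17662 to 20031 CPM in scramble libraries, and 3 of them (Tcf21, Pdgfra and Dcn) fell. Of 7 erythroid markers, 0 were among the genes measured. Of 10 macrophage markers 9 were measured, at 162 to 167 CPM in knockdown and 139 to 155 CPM in scramble libraries, and Csf1r among them rose. Endothelial markers (7 of 7) stood at 180 to 188 CPM in knockdown and 172 to 190 CPM in scramble libraries, and within them Kdr and Emcn rose and Tek fell. Mural markers (4 of 5) stood at 32.7 to 34.8 CPM in knockdown and 54.6 to 58.5 CPM in scramble libraries, and Cspg4 and Rgs5 fell. Cardiomyocyte markers (3 of 7) stood at 24.98 to 32.0 CPM in knockdown and 20.1 to 21.9 CPM in scramble libraries, nearly all of it Tnnt2, which rose. Markers said to rise or fall had an edgeR adjusted p under 0.05, as had 32.2% of all genes tested. The other markers tested did not pass, and nothing is read from the markers that did. The part of these other cells in the values below was not tested. In such bulk samples a change in the number of cells of a type and a change in RNA per cell cannot be told apart.

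The ferritin subunits were by far the most abundant of these transcripts, and they differed between the groups in opposite directions. Light chain mRNA was about 1.55 times as high, and heavy chain mRNA 0.671 times as high, in Sipa1 knockdown cells as in scramble cells. The summed ferritin level changed much less, so that what differed was mainly the composition: the light chain was the more abundant message in knockdown cells and the heavy chain in scramble cells.

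Ftl1 (NCBI gene 14325; GRCm38 chromosome 7, 45457944 to 45459884, minus strand), the light chain gene, had 116260, 120749 and 114573 reads in knockdown replicates 1, 2 and 3, against 80104, 59173 and 82347 reads in scramble replicates 1, 2 and 3. In TPM, the authors' values per transcript length and library total, these were 7228, 6991 and 7277 in knockdown libraries and 4718, 4631 and 4696 in scramble libraries. Every knockdown library was above every scramble library, and the libraries within a group lay close together. The log2 fold change in CPM, knockdown over scramble, was 0.63 (SE 0.048), from means of 3032 ± 75.1 CPM in knockdown and 1954 ± 79.8 CPM in scramble cells (SD, n = 3 each). Ranked by TPM among all genes measured, Ftl1 was at place 4, 5 and 4 in the knockdown libraries and at place 10, 10 and 12 in the scramble libraries. An unclassified transcript on the opposite strand and a miRNA annotation, Gm10252 and Gm22133, overlap Ftl1, and the sources used here do not say how the counting treated strand.

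Fth1 (NCBI gene 14319; chromosome 19, 9980598 to 9985098, plus strand), the heavy chain gene, had 60276, 61098 and 51200 reads in knockdown replicates 1, 2 and 3, against 91926, 64061 and 96353 reads in scramble replicates 1, 2 and 3. Its TPM values were 3858, 3642 and 3348 in knockdown libraries and 5574, 5162 and 5655 in scramble libraries. The groups did not overlap here either, although the libraries spread more than for Ftl1, with knockdown replicate 3 the lowest of its group and scramble replicate 2 the lowest of its own. The mean level was 1487 ± 121 CPM in knockdown and 2217 ± 174 CPM in scramble cells, a log2 fold change of -0.58 (SE 0.061). The row for Fth1 pools a coding and a non-coding transcript. By TPM, Fth1 was at place 20, 19 and 23 in knockdown libraries and at place 7 in each scramble library.

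**Figure D1:**
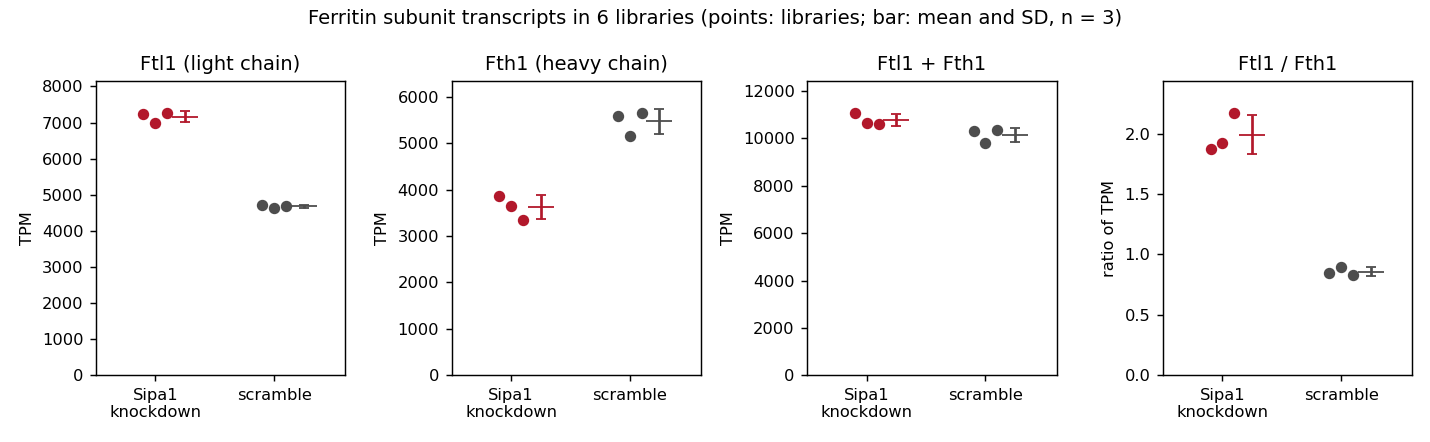
TPM of Ftl1, of Fth1 and of both together, and the ratio of Ftl1 to Fth1 TPM, in 3 Sipa1 knockdown and 3 scramble libraries (points), with mean and SD beside them. The ratio lies between 1.87 and 2.17 in knockdown libraries and between 0.830 and 0.897 in scramble libraries, while the summed level averages 10781 and 10145 TPM.

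The ratio of Ftl1 to Fth1, in TPM, was 1.87, 1.92 and 2.17 in knockdown replicates 1, 2 and 3, against 0.846, 0.897 and 0.830 in scramble replicates 1, 2 and 3. It thus lay above 1 in all 3 knockdown libraries and below 1 in all 3 scramble libraries. The mean ratio was 1.99 ± 0.162 in knockdown and 0.858 ± 0.035 in scramble cells (SD, n = 3 each), a 2.32-fold difference. Expressed as a share of the 2 subunits, Ftl1 made up 66.5 ± 1.76% in knockdown and 46.2 ± 1.00% in scramble cells. The sum of both was 11085, 10633 and 10624 TPM in knockdown replicates 1, 2 and 3 and 10292, 9793 and 10351 TPM in scramble replicates 1, 2 and 3. The means of this sum, 10781 ± 264 and 10145 ± 307 TPM, differed 1.06-fold, and ferritin took 1.08% of all TPM in knockdown and 1.02% in scramble cells.

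The light chain has near-identical copies elsewhere in the genome, and 3 of them were measured. Ftl1-ps1 (chromosome 13) matched the Ftl1 transcript at 99.56% of 910 aligned bases, Ftl2-ps (chromosome 4) at 98.73% of 552 and Ftl1-ps2 (chromosome 10) at 97.81% of 549, so reads may be shared and the split between copies is uncertain. Ftl1-ps1 stood at 202, 184 and 217 TPM in knockdown replicates 1, 2 and 3 and at 138, 137 and 140 TPM in scramble replicates 1, 2 and 3. Ftl2-ps stood at 155, 143 and 160 TPM in knockdown and at 100.1, 107 and 107 TPM in scramble libraries. Ftl1-ps2 had only 22, 19 and 26 reads in knockdown and 8, 9 and 14 reads in scramble libraries. The copies thus leaned the same way as Ftl1 in all 6 libraries, with log2 fold changes of 0.56 (SE 0.055) for Ftl1-ps1, 0.57 (SE 0.054) for Ftl2-ps and 1.07 (SE 0.37) for Ftl1-ps2, the last being 0.29 on log2(FPKM + 1). Together they made up 4.72 ± 0.224% of the light chain TPM in knockdown and 4.95 ± 0.113% in scramble cells. With the copies added to Ftl1, a setting chosen after the data were seen, the ratio to Fth1 differed 2.31-fold. That ratio was 1.97, 2.01 and 2.29 in knockdown replicates 1, 2 and 3. In scramble replicates 1, 2 and 3 it was 0.889, 0.944 and 0.874, below 1 but nearer to it than for Ftl1 alone. No copy of Fth1 was found by name among the genes measured. Copies of either chain under unrelated names were not searched for.

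**Figure D2:**
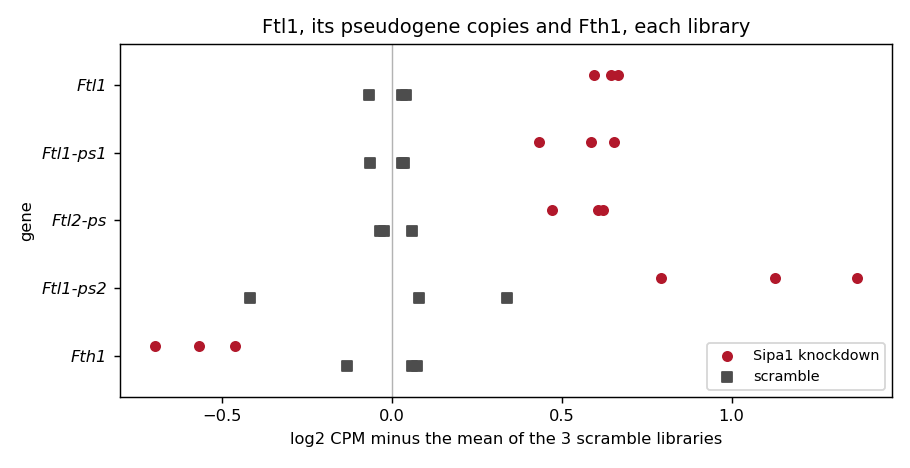
Level of Ftl1, its 3 near-identical copies and Fth1 in each library, as log2 CPM minus the mean of the 3 scramble libraries (Sipa1 knockdown as circles, scramble as squares). The light chain gene and its copies lie to the right of the scramble libraries in every knockdown library and Fth1 lies to the left; the wide spread of Ftl1-ps2 goes with its 8 to 26 reads.

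The libraries' profiles most like that of Ftl1 were those of Pald1, Tuft1 and Cpxm1. Their root mean square differences from it were 0.034, 0.035 and 0.036 in centred log2 CPM over the 6 libraries. Among the profiles most like that of Fth1 were those of Nol3 (0.043) and Srebf2 (0.045). The search covered 10442 other genes with a mean of at least 5 CPM, leaving out symbols made of Gm plus digits or ending in Rik. The group difference dominates these profiles, so the likeness is mostly a like fold change: 0.62 for Pald1, 0.62 for Tuft1 and 0.67 for Cpxm1, and -0.62 for Nol3 and -0.54 for Srebf2 on the log2 scale.

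Among the importers, the transferrin receptor and the divalent metal transporter were higher in knockdown cells, and the zinc and iron transporter of the ZIP family was not separated between groups. Tfrc (NCBI gene 22042; chromosome 16, 32608920 to 32632794, plus strand), which binds iron-loaded transferrin at the cell surface, had 112, 123 and 119 CPM in knockdown replicates 1, 2 and 3, against 83.9, 87.3 and 88.2 CPM in scramble replicates 1, 2 and 3. Its log2 fold change of 0.45 (SE 0.046) was the largest of the 8 genes other than the ferritin subunits, and no library of one group reached the other. Slc11a2 (NCBI gene 18174; chromosome 15, 100387898 to 100425072, minus strand), which carries ferrous iron across the endosomal membrane, had 162, 159 and 151 CPM in knockdown and 132, 130 and 136 CPM in scramble libraries. It was likewise above the scramble range in all 3 knockdown libraries, with a log2 fold change of 0.24 (SE 0.043). Gm5475 overlaps it on the opposite strand. Slc39a14 (NCBI gene 213053; chromosome 14, 70303469 to 70351425, minus strand), which takes up iron not bound to transferrin and is known as an inflammation-responsive gene of liver, had 199, 212 and 198 CPM in knockdown and 196, 207 and 214 CPM in scramble libraries. Here the groups overlapped, and the difference of -0.02 had a 95% interval of -0.11 to 0.08 on the log2 scale.

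The exporter was the scarcest of the 10. Slc40a1 (NCBI gene 53945; chromosome 1, 45908068 to 45926523, minus strand), which encodes ferroportin, the iron exporter of mammalian cells, had 214, 258 and 253 reads in knockdown libraries and 234, 187 and 251 reads in scramble libraries. That amounted to 5.70, 6.30 and 6.74 CPM in knockdown and 5.87, 5.88 and 6.07 CPM in scramble libraries. The groups overlapped, and the interval of the log2 difference (0.07, 95% interval -0.16 to 0.31) was the widest of the 10 genes.

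The 2 iron regulatory proteins differed little. Aco1 (NCBI gene 11428; chromosome 4, 40143081 to 40198338, plus strand) encodes a protein that works as cytosolic aconitase when it holds an iron-sulfur cluster and binds iron-responsive elements when it does not. It had 62.6, 59.3 and 60.2 CPM in knockdown and 57.7, 54.8 and 57.0 CPM in scramble libraries. The groups did not overlap, but the gap was narrow, with a log2 fold change of 0.10 (SE 0.048). Ireb2 (NCBI gene 64602; chromosome 9, 54863789 to 54912530, plus strand), whose protein is broken down when iron is plentiful, had 103, 112 and 117 CPM in knockdown and 114, 117 and 115 CPM in scramble libraries. Its knockdown libraries spread over and below the scramble range, and the difference was -0.06 with a 95% interval of -0.16 to 0.03 on the log2 scale.

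Ncoa4 acts in the release of iron from ferritin and Hmox1 in its release from haem, and both were slightly higher in knockdown cells. Ncoa4 (NCBI gene 27057; chromosome 14, 32159865 to 32179855, plus strand), the receptor that binds the heavy chain and delivers ferritin to the lysosome, had 83.4, 88.8 and 88.3 CPM in knockdown and 78.5, 79.0 and 78.7 CPM in scramble libraries. Its scramble libraries were almost equal in CPM, and its log2 fold change was 0.14 (SE 0.045), or 0.08 on the authors' FPKM with either pseudocount. In the authors' TPM its groups overlapped, with 49.9, 54.1 and 54.0 in knockdown and 48.5, 52.2 and 50.9 in scramble libraries. Hmox1 (NCBI gene 15368; chromosome 8, 75093621 to 75100589, plus strand), the inducible oxygenase that opens haem to biliverdin, carbon monoxide and iron, had 351, 327 and 357 CPM in knockdown and 289, 284 and 290 CPM in scramble libraries. All 3 knockdown libraries lay above the scramble range, with a log2 fold change of 0.26 (SE 0.043).

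**Figure D3:**
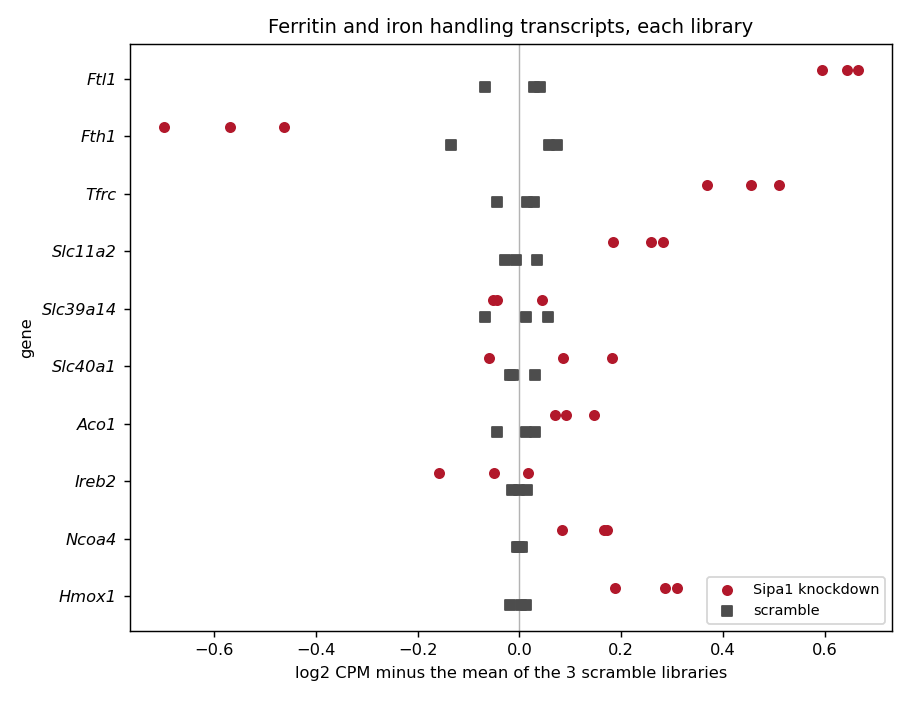
Level of the 10 ferritin and iron handling genes in each library, as log2 CPM minus the mean of the 3 scramble libraries (circles, Sipa1 knockdown; squares, scramble). Ftl1, Tfrc, Slc11a2, Aco1, Ncoa4 and Hmox1 lie above the scramble range in all 3 knockdown libraries, Fth1 lies below it, and Slc39a14, Slc40a1 and Ireb2 overlap.

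Of the 10 genes, all of which passed the filter on low counts, 7 had groups that did not overlap in CPM, beside 43.6% of the 15954 genes tested. With an edgeR adjusted p under 0.05, 5 were higher and 1 lower, beside 32.2% of all genes called in either direction. Because the same contrast was known when the genes were chosen, nothing is read from these counts. The median log2 fold change was 0.12 over the 10 genes and -0.0013 over all genes tested. Sorted by the iron-responsive elements printed above, the 3 transcripts with a 5′ element had log2 fold changes of 0.63 (Ftl1), -0.58 (Fth1) and 0.07 (Slc40a1), and Tfrc with its 3′ elements had 0.45. Transcripts without a match, Slc11a2 among them, were not placed in this sorting. Ftl1 and Fth1, which share nearly the same element, were known beforehand to differ in opposite directions, so nothing is read from their places.

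Per transcript length, the order of levels in knockdown cells was Ftl1, Fth1, Hmox1 (502 ± 22.9 TPM), Slc11a2 (96.0 ± 3.18), Slc39a14 (86.3 ± 7.95), Tfrc (54.7 ± 3.27), Ncoa4 (52.7 ± 2.35), Ireb2 (43.9 ± 3.20), Aco1 (32.2 ± 0.609) and Slc40a1 (4.23 ± 0.394 TPM). In scramble cells it was Fth1, Ftl1, Hmox1 (425 ± 9.17 TPM), Slc39a14 (87.1 ± 9.79), Slc11a2 (82.6 ± 1.18), Ncoa4 (50.5 ± 1.91), Ireb2 (46.6 ± 1.86), Tfrc (40.7 ± 1.88), Aco1 (30.4 ± 0.217) and Slc40a1 (4.08 ± 0.118 TPM). Neighbours whose library ranges overlapped were Tfrc and Ncoa4 in knockdown cells, and Slc39a14 with Slc11a2 and Ncoa4 with Ireb2 in scramble cells. Ferritin thus stood at the top of the order and ferroportin at its foot in both groups, with the 2 ferritin subunits changing places.

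Beyond these 10, a list of 109 other genes of iron biology was measured and tested, and 31 of them rose and 21 fell in knockdown cells, 47.7% in all against 32.2% of all genes. Their median log2 fold change was 0.05. The 109 genes were listed with earlier results of these data known. Nothing is therefore read from this share, and the adjusted p-values below are given as a description. Among the regulators known to act on ferritin and Hmox1 transcription, all 7 genes of NRF2 and BACH1 control passed the test, 4 higher and 3 lower. Nfe2l2, which encodes the activator NRF2, rose to 335 ± 6.09 CPM in knockdown, against 254 ± 6.83 CPM in scramble cells (log2 0.40, SE 0.041, edgeR adjusted p = 9.43e-08). Keap1, which marks NRF2 for destruction, rose as well (0.26, SE 0.049), and so did the small Maf partners Maff (0.23, SE 0.049) and Mafk (0.20, SE 0.048). Bach1, a haem-sensing repressor of Hmox1 and the ferritin genes, fell to 39.2 ± 1.91 CPM in knockdown, against 48.9 ± 1.76 CPM in scramble cells (log2 -0.32, SE 0.054, edgeR adjusted p = 8.19e-05). Mafg fell by 0.35 (SE 0.045), and the related factor gene Nfe2l1 fell to 358 ± 15.7 CPM in knockdown, against 582 ± 21.6 CPM in scramble cells (log2 -0.70, SE 0.045, edgeR adjusted p = 5.59e-11).

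Of 11 genes of ferritin degradation by autophagy 5 rose and 2 fell, 63.6% called beside 32.2% of all genes. Map1lc3b, which encodes the membrane-bound tag of autophagosomes, fell to 137 ± 4.89 CPM in knockdown, against 216 ± 10.3 CPM in scramble cells (log2 -0.65, SE 0.045, edgeR adjusted p = 1.75e-10), and the cargo receptor gene Sqstm1 fell by 0.31 (SE 0.044). Atg5 (0.35, SE 0.065) and Atg16l1 (0.34, SE 0.067), which help to attach that tag, and the initiating kinase gene Ulk1 (0.26, SE 0.050) rose. Tax1bp1, a receptor known to act with Ncoa4, stood at -0.03 and Herc2, which encodes a ligase for the NCOA4 protein, at -0.03 on the log2 scale; neither passed the test.

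Of 15 genes of iron uptake and transport 3 rose and 3 fell, 40% called beside 32.2% of all genes. Slc46a1, a folate and haem transporter gene, rose to 13.6 ± 0.613 CPM in knockdown, against 8.53 ± 1.17 CPM in scramble cells (log2 0.68, SE 0.097, edgeR adjusted p = 8.76e-06). The metalloreductase genes of the Steap family went both ways, with Steap1 higher (0.27, SE 0.054) and Steap4 lower (-0.27, SE 0.067), and the lysosomal haem transporter gene Slc48a1 fell by 0.23 (SE 0.046). Lcn2, an LPS-induced protein that captures bacterial iron carriers, was among the more abundant of these transcripts, with 822 ± 39.6 CPM in knockdown and 805 ± 38.1 CPM in scramble cells (log2 0.03, SE 0.048, edgeR adjusted p = 0.688). Without knockdown replicate 3 the number that rose was 5 of 15.

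Of 10 genes of iron chaperones, export oxidases and hepcidin control 4 rose and 2 fell, 60% called beside 32.2% of all genes. The ferroxidase genes split: Cp, encoding ceruloplasmin, fell to 515 ± 37.9 CPM in knockdown, against 624 ± 3.16 CPM in scramble cells (log2 -0.28, SE 0.048, edgeR adjusted p = 1.04e-04), while Heph, encoding hephaestin, rose by 0.27 (SE 0.056). Pcbp1, which delivers iron to ferritin, rose by 0.19 (SE 0.051), and Bmp6, an inducer of hepcidin in liver, fell by 0.37 (SE 0.067). Hamp, the gene of the hormone hepcidin, has a near-identical neighbour, Hamp2, so that its reads may be shared, and it had few of them, with 21, 15 and 16 reads in knockdown and 4, 6 and 5 reads in scramble libraries (log2 1.73, SE 0.45, edgeR adjusted p = 0.00465). On log2(FPKM + 1) its change was 0.62, and with at least 1 CPM in 3 libraries it was not tested. DESeq2, which gave Hamp no adjusted p, counted 2 rising genes in this list in place of 4.

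Of 9 genes of haem synthesis 2 rose and 7 did not pass the test, 22.2% called beside 32.2% of all genes. Fech, which encodes the enzyme that inserts iron into haem, rose to 73.9 ± 2.02 CPM in knockdown, against 49.3 ± 2.40 CPM in scramble cells (log2 0.58, SE 0.050, edgeR adjusted p = 5.13e-09). The number rising in this list was 1 without knockdown replicate 1 or 3 or scramble replicate 1 or 3. Of 6 genes of haem breakdown and binding 2 rose and 4 did not pass, 33.3% called beside the same 32.2%. Por, which encodes the electron donor of haem oxygenase, rose by 0.44 (SE 0.049). Hmox2, the constitutive oxygenase gene, rose by 0.17 (edgeR adjusted p = 0.0259), but did not pass without knockdown replicate 3 (0.109) or scramble replicate 1 (0.105) or 3 (0.0602), or on log2(FPKM + 1) (limma adjusted p = 0.0506). Blvra (0.15), Blvrb (0.19), Hpx (-0.46) and Hp (-0.07) did not pass.

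Of 25 genes of mitochondrial iron and iron-sulfur assembly 4 rose and 4 fell, 32.0%, beside 32.2% of all genes. The cysteine desulfurase gene Nfs1 (-0.29, SE 0.066), the mitochondrial iron importer gene Slc25a37 (-0.21, SE 0.053) and Isca1 (-0.21, SE 0.055) fell, and Fdx1 (0.34, SE 0.082) and Isca2 (0.34, SE 0.084) rose. Slc25a37 stood at -0.13 without scramble replicate 2 and did not pass on log2(FPKM + 1) (limma adjusted p = 0.0719) or log2(FPKM + 0.1) (0.0617). Of 11 genes of cytosolic iron-sulfur assembly 2 rose and 2 fell, 36.4% called beside 32.2% of all genes. Ciapin1 was higher (0.28, SE 0.068) and its reductase partner Ndor1 lower (-0.27, SE 0.058). On the authors' FPKM, Ciapin1 did not pass, with 0.11 on log2(FPKM + 1) and 0.12 on log2(FPKM + 0.1) (limma adjusted p = 0.417 and 0.398). The number rising here was 1 on either FPKM scale and without knockdown replicate 3 or scramble replicate 3, and the number falling was 1 without scramble replicate 3. Of 4 other known carriers of iron-responsive elements and their regulators 2 rose, 50% called beside 32.2% of all genes. Cdc42bpa was among them, higher by 0.25 (SE 0.044). Fbxl5, whose product targets iron regulatory protein Ireb2 for destruction, stood at -0.13 (SE 0.054, edgeR adjusted p = 0.0709), and Epas1, the hypoxia factor gene, at 0.07 (SE 0.057, edgeR adjusted p = 0.382).

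Of 11 genes linked to ferroptosis, the iron-dependent form of cell death, 3 rose and 5 fell, 72.7% called beside 32.2% of all genes. Gpx4, which removes lipid peroxides, fell to 219 ± 16.8 CPM in knockdown, against 272 ± 13.2 CPM in scramble cells (log2 -0.31, SE 0.051, edgeR adjusted p = 5.08e-05), with Slc3a2 of the cystine importer (-0.25, SE 0.051) and Lpcat3 of phospholipid remodelling (-0.22, SE 0.053). Gclm, a subunit of glutathione synthesis (0.39, SE 0.066), Nqo1, a quinone reductase (0.33, SE 0.056), and the prion protein gene Prnp (0.25, SE 0.043) rose. On the authors' FPKM values 3 genes fell in place of 5.

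**Figure D4:**
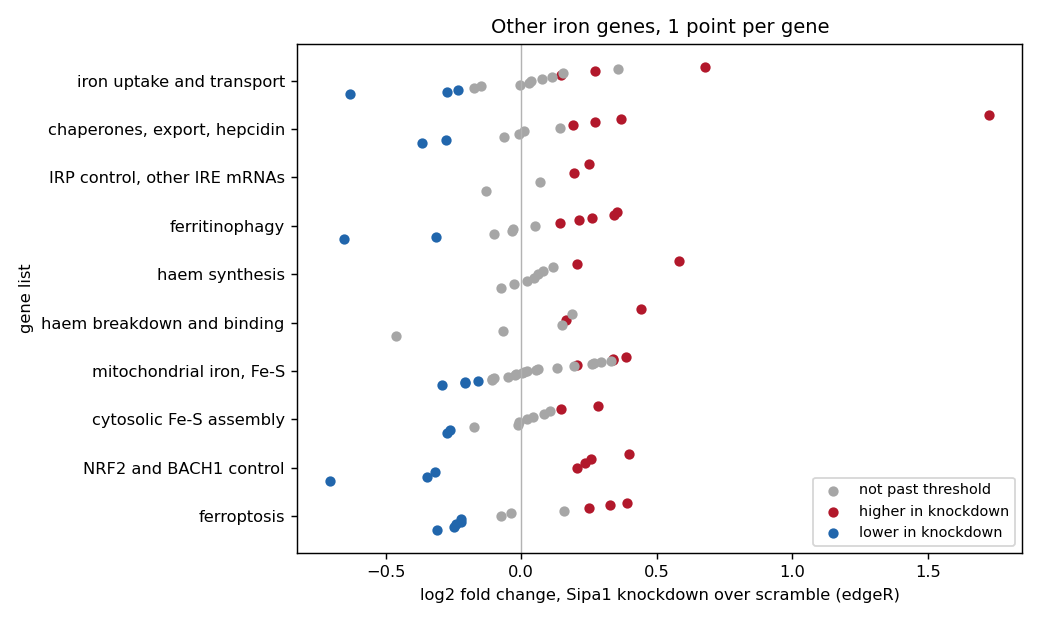
Log2 fold change, Sipa1 knockdown over scramble, of the 109 other iron genes by list, 1 point per gene (red, higher and blue, lower at an edgeR adjusted p under 0.05; grey, not past it). In NRF2 and BACH1 control all 7 points are coloured, and in mitochondrial iron and iron-sulfur assembly 8 of 25 are. Over all genes tested, 32.2% were called. The point at 1.73 is Hamp.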

How the data were processed

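Per the submitters' processing notes, HISAT2, StringTie and the mm10 build were used; neither versions nor roles are stated. The authors deposited read counts per gene (whole numbers, not normalized), FPKM and TPM, per the file headers. The deposited table was the same for all 6 samples, lists genes with at least 1 read in every library, and was used once. A gene silent in any library was therefore not analysed.

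Counts were fitted by edgeR 4.0.16 (R 4.3.3), using filterByExpr, TMM scaling and its robust quasi-likelihood test between the groups, with Benjamini-Hochberg adjustment over the 15954 genes kept and a threshold of 0.05. Each SE was obtained from the fold change and its F statistic. On simulated counts for this comparison (15774 genes) planted log2 changes of 0.5 and 1 were recovered for 74.0% and 85.0% of genes each, and 0.0514% of unchanged genes were called. Library pairs of a group differed beyond sampling noise (chi-square per degree of freedom 3.89 to 8.64). Replicate numbers did not pair the samples.

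Genes named beyond the 10 and Sipa1 were all ferritin copies, up to 3 higher and 3 lower per list by smallest adjusted p (all genes of lists of 7 or fewer), and the 3 nearest profiles of Ftl1 and Fth1; some are not reported here, and Lcn2, Tax1bp1, Herc2 and the markers of cell types named as changed lie outside this rule and were added after their values were seen. The 10 genes and all lists were chosen with earlier results of these data known. Alternatives were RLE factors, library size only, no filter, a minimum of 1 CPM in 3 libraries, limma-voom, DESeq2 1.42.0, limma 3.58.1 on log2(FPKM + 1) or log2(FPKM + 0.1), a non-robust fit, a replicate block and each library left out. Sequence searches used Python 3.11.15 and Biopython 1.88.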

Additional observations from a re-analysis of the deposited data

How the results depend on the processing

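Over 16 alternatives, Ftl1 stayed between 0.60 and 0.65 and Fth1 between -0.64 and -0.52 on the log2 scale, and Sipa1 between -1.36 and -1.10. The ratio of Ftl1 to Fth1 differed 2.21-fold to 2.39-fold over 8 alternatives. The number of genes higher in knockdown ranged from 2128 to 2710 and lower from 2024 to 2651, and of the other iron genes 27 to 32 rose and 17 to 23 fell. Of the 10 genes, 4 or 5 were called higher and 1 lower. Samples with the same replicate number did not deviate together (correlations -0.0027, -0.0095 and -0.0077, and no library correlated best with its own number), and the replicate block gave 2710 higher and 2597 lower genes. Among calls of named genes lost when a library was left out, with their edgeR adjusted p, were Glrx3 (0.0683 without knockdown replicate 3, 0.0882 without scramble replicate 3), Bola2 (0.0622 without scramble replicate 3), Steap2 (0.0584 without knockdown replicate 2) and Flvcr2 (0.0687 and 0.156 without knockdown replicates 1 and 3, 0.129 and 0.0506 without scramble replicates 1 and 3), besides Hmox2. On log2(FPKM + 1), Ciapin1, Slc25a37, Hmox2 and Flvcr2 no longer passed. Hp, which did not pass in any setting, stood at -0.07 but at 0.03 without knockdown replicate 3 and 0.050 without scramble replicate 3, over a range of -0.18 to 0.050 when each library was left out; the cause was not tested. Blvrb passed with the replicate block (0.0416) and without scramble replicate 3 (0.0400), and Fbxl5 with at least 1 CPM in 3 libraries (0.0437). Ferritin counts of 51200 to 120749 reads per library leave little counting error, whereas Slc40a1, Hamp and Ftl1-ps2 are limited by depth.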

Other observations

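The iron-responsive element pattern is not confined to the iron genes described. Of 26 tested genes with it in a 5′ UTR, 5 rose and 6 fell (42.3%, median log2 fold change 0.02), and of 104 tested genes with it in a 3′ UTR, 23 rose and 26 fell (47.1%, median 0.00). Among all 15954 genes tested 32.2% were called, with a median of 0.00. The first set holds Ftl1, Fth1 and Slc40a1 and the second Tfrc, and neither set was tested against the other genes.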
